A study of Mus musculus with 2 samples.

Results

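Heat shock chaperones are proteins that help other proteins to fold. The genes described are 10 of the 31053 gene rows in single-nucleus RNA sequencing of the mouse paraventricular hypothalamus (PVH): Hsph1, Hspa8, Hsp90aa1, Hsp90ab1, Dnajb1, Dnaja1, Cacybp, Cct7, Hspa5 and Chordc1. The genes were selected with their measured levels in these nuclei in view, so their differences between pools are given as a description and no test was made on them. The PVH is a hypothalamic region that controls feeding and pituitary hormone release. Nuclei came from 17 mice aged 4 weeks, each with Sim1-Cre and with a Sun1-GFP reporter that marks the nuclear envelope of cells in which Cre has acted. Of the mice, 4 were also heterozygous for a floxed Otp allele (Otpfl/+), 6 were heterozygous for Otp Q153R, and 7 had no Otp alteration. Otp is a homeobox factor that neuroendocrine neurons of the PVH need for their development. The floxed allele is lost only in cells with Sim1-Cre activity, so it leaves Otp untouched elsewhere.

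GFP-positive nuclei of all mice were sorted and run as 1 library, in which antibody hashtags marked 3 pools. The deposited tag names are KD, Q153R and Ctrl. KD is not spelled out and is matched to the floxed mice only because the other names fit the other genotypes, and the text speaks of nuclei labelled KD, Q153R and Ctrl. Each pool is 1 sample, and mice within it cannot be told apart. A difference between pools therefore has no replicate check and cannot be told apart from a difference in sorting or in the mice pooled, and all intervals below are 95% intervals that cover counting error only and treat the UMIs (molecules counted) of a nucleus as independent.

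Most cells hold the chaperones of this set without stress. HSP70 proteins such as the product of Hspa8 bind unfolded stretches of other proteins, J-domain proteins such as those of Dnajb1 and Dnaja1 bring clients to HSP70 and start its ATP cycle, and HSP110 proteins such as that of Hsph1 exchange its nucleotide. HSP90 proteins act later on receptors and kinases, and the chaperonin TRiC folds actin and tubulin inside a ring. When unfolded proteins accumulate, heat shock factor 1 binds repeats of the motif nGAAn in promoters and raises many of these genes at once, while the endoplasmic reticulum (ER) has a separate response that raises Hspa5.

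Hsph1 and Chordc1 are the members with a 3-unit heat shock element near an annotated start, and Hspa5 belongs to the ER response, so promoter stretches of these 3 genes are shown, from RefSeq on build GRCm38.p6, 5′ to 3′ on the gene's strand, each starting 200 bases before an annotated start. Capitals mark a 3-unit heat shock element in Hsph1 and Chordc1 and an ER stress element in Hspa5.
Hsph1, chr5:149636288-149636515, minus strand: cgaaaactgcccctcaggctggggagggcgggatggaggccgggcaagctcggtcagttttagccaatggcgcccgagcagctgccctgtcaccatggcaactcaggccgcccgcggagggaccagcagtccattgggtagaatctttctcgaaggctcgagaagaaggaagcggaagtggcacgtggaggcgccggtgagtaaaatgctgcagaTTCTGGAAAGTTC
Chordc1, chr9:18292067-18292285, plus strand: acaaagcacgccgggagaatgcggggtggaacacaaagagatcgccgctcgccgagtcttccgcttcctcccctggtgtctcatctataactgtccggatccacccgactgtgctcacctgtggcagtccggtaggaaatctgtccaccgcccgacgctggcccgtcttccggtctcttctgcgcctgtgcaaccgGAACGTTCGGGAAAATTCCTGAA
Hspa5, chr2:34771890-34772089, plus strand: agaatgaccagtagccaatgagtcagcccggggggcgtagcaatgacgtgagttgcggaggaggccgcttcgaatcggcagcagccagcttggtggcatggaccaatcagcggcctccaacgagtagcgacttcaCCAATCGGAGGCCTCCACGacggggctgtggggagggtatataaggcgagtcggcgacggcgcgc
The motif began 15 bases after the annotated first base in Hsph1, 4 bases before it in Chordc1, where 3 matches overlap in the 23 capital bases, and 65 bases before it in Hspa5. Hsph1 has another annotated start, and the same motif began 36 bases after that one. These starts are those of RefSeq. The GENCODE coordinates given below begin further upstream for Hsph1, Chordc1 and Hspa5, and each motif lies inside the gene by those coordinates. Both strands of 300-base windows, from 250 bases before to 50 bases after each start, were searched for 3 alternating units (GAANNTTCNNGAA or TTCNNGAANNTTC). Of the 10 genes, 7 had a window (Hspa8, Hsp90aa1 and Hsp90ab1 had none), and 2 of the 7 held this motif, against 0.662% of the 27025 genes with a window. The 2-unit form (GAANNTTC or TTCNNGAA), which every 3-unit match contains, was in windows of Hsph1, Chordc1 and Dnaja1 and in 17.0% of all genes. The windows of Cct7, Cacybp, Dnajb1 and Hspa5 held neither form. The ER stress element (CCAAT, 9 free bases, CCACG) was in Hspa5 and in 0.137% of all genes. CCAAT alone, which the ER stress element contains, was in windows of Hsph1, Dnajb1, Dnaja1, Cct7 and Hspa5 and in 41.1% of all genes. TATAAA, searched on the gene's strand, was in 0 of the 7 and in 9.77% of all genes. A match shows letters only, and says nothing of whether a factor was bound there.

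Of 6173 barcodes with 42833533 gene UMIs, 4904 passed the filters and carried exactly 1 tag. They were 1347 nuclei labelled KD, 1591 labelled Q153R and 1966 labelled Ctrl. Nuclei with at least 1 UMI of Sim1, a transcription factor of PVH neurons, are called Sim1 nuclei. They numbered 899 labelled KD, 1169 labelled Q153R and 1180 labelled Ctrl, with medians of 6506, 5022 and 5866 UMIs. GABAergic nuclei, which held at least 3 UMIs of Gad1, Gad2 and Slc32a1 together and none of Sim1, numbered 70 labelled KD, 38 labelled Q153R and 151 labelled Ctrl, and their summed GABAergic marker level was 922 to 1106 counts per 1000000 UMIs (CPM) against 40.8 to 52.7 CPM in Sim1 nuclei. In Sim1 nuclei the 5 astrocyte markers summed to 61.2, 45.7 and 50.6 CPM in nuclei labelled KD, Q153R and Ctrl, the 5 oligodendrocyte markers to 75.8, 48.1 and 43.7 CPM, and the 4 microglial markers to 67.7 to 72.3 CPM, with Aqp4 at 0 in nuclei labelled Ctrl. The 4 oligodendrocyte precursor markers summed to 509 to 588 CPM in Sim1 nuclei, of which Lhfpl3 alone gave 479 to 550 CPM and the defining Pdgfra and Cspg4 only 0.158 to 0.801 CPM each. The 4 endothelial markers summed to 5.70 to 6.96 CPM, with Cldn5 or Ly6c1 at 0 in each pool, and the 4 ependymal markers to 3.53 to 4.90 CPM, with Ccdc153 at 0. Otp had 93.9 CPM in Sim1 nuclei labelled KD, 123 CPM in Q153R and 57.9 CPM in Ctrl. The measured Otp level was thus not lower in nuclei labelled KD than in nuclei labelled Ctrl. The pools also differed in sex: Xist nuclei (at least 3 Xist UMIs and no Y-linked UMI) were 84.0% of Sim1 nuclei labelled KD, 47.0% labelled Q153R and 70.8% labelled Ctrl, and nuclei with at least 2 Y-linked UMIs were 3.34%, 29.6% and 12.8%.

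In Sim1 nuclei the 10 genes together were lower in nuclei labelled KD than in nuclei labelled Ctrl, and close to Ctrl in nuclei labelled Q153R. Their summed level was 521 CPM (503 to 539) in nuclei labelled KD, 638 CPM (619 to 658) in nuclei labelled Q153R and 619 CPM (602 to 637) in nuclei labelled Ctrl. The ratio was 0.841 (0.804 to 0.880) for KD over Ctrl, 1.03 (0.988 to 1.08) for Q153R over Ctrl and 1.23 (1.17 to 1.28) for Q153R over KD. The members did not move as 1 block. For KD over Ctrl, 8 of 10 ratios were under 1 and 7 of these had an interval below 1, while Hspa8 and Hsp90aa1 were at or above 1. For Q153R over Ctrl, 7 were over 1, with intervals above 1 for Hsph1, Dnajb1 and Cacybp and below 1 for Hsp90ab1. Among all genes with at least 200 UMIs the median ratio was 0.970 for KD over Ctrl and 0.987 for Q153R over Ctrl. The share of all genes with such intervals was not computed. The members were selected on these levels, so nothing is read from these counts.

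**Figure D1:**
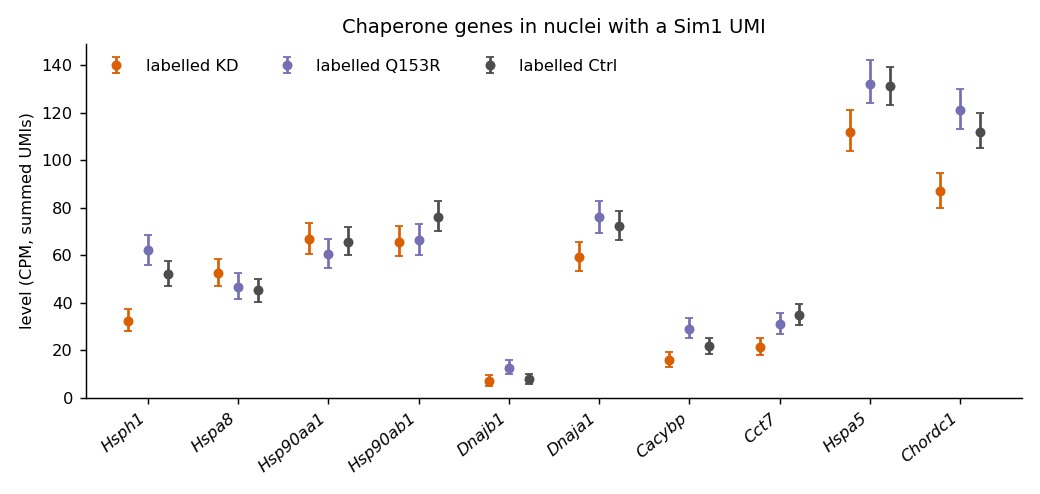
Level of each gene (CPM, from UMIs summed over nuclei) in Sim1 nuclei labelled KD, Q153R and Ctrl, from left to right within a gene; bars are 95% Poisson intervals. Hsph1, Cct7 and Chordc1 were lowest in nuclei labelled KD, with Hsph1 at 32.5, 62.1 and 52.3 CPM in KD, Q153R and Ctrl.

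Hsph1 (chromosome 5, 149614287 to 149636376, minus strand, GRCm38, GENCODE vM21) encodes an HSP110 protein. It had 32.5 CPM in nuclei labelled KD (203 UMIs), 62.1 CPM in nuclei labelled Q153R (393 UMIs) and 52.3 CPM in nuclei labelled Ctrl (395 UMIs). KD was the lowest pool and its interval met neither of the others, and Q153R was the highest. The ratio was 0.622 (0.522 to 0.738) for KD over Ctrl, 1.19 (1.03 to 1.37) for Q153R over Ctrl and 1.91 (1.61 to 2.27) for Q153R over KD. The UMIs were spread over 161, 318 and 296 nuclei labelled KD, Q153R and Ctrl, with at most 5 in any nucleus. Thinned to 3141 UMIs a nucleus, the share of nuclei with an Hsph1 UMI was 9.38%, 17.3% and 14.2%, against 17.9%, 27.2% and 25.1% before thinning. These genes are expressed by most cell types, so no nuclei in the library serve as a background for such shares.

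Hspa8 (chromosome 9, 40800984 to 40810087, plus strand) encodes the constitutive cytosolic HSP70, which folds new proteins and strips clathrin from vesicles. It had 52.6 CPM in nuclei labelled KD, 46.8 CPM in nuclei labelled Q153R and 45.2 CPM in nuclei labelled Ctrl. Its highest level was in KD, as for Hsp90aa1. The KD over Ctrl ratio of 1.16 had an interval from 0.997 to 1.36, which reaches 1, and that of Q153R over Ctrl was 1.04 (0.883 to 1.21). Hsph1 and Hspa8, which encode partners in the same folding cycle, thus stood on opposite sides of 1 in nuclei labelled KD.

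The cytosolic HSP90 genes lay closer to Ctrl than Hsph1 did. Hsp90aa1 (chromosome 12, 110690605 to 110702728, minus strand), the form that stress induces, had 67.0, 60.5 and 65.7 CPM in nuclei labelled KD, Q153R and Ctrl, and all 3 intervals overlapped. Hsp90ab1 (chromosome 17, 45567775 to 45573271, minus strand), the constitutive form, had 65.7, 66.4 and 76.3 CPM. Both altered pools were below Ctrl for Hsp90ab1, with ratios of 0.861 (0.757 to 0.979) for KD over Ctrl and 0.870 (0.765 to 0.988) for Q153R over Ctrl. Chordc1 (chromosome 9, 18292125 to 18317442, plus strand) encodes a co-chaperone of HSP90 that is itself heat-inducible. It had 86.9 CPM in nuclei labelled KD (542 UMIs), 121 CPM in nuclei labelled Q153R (765 UMIs) and 112 CPM in nuclei labelled Ctrl (845 UMIs). KD was again apart from both other pools, at 0.776 (0.695 to 0.865) of Ctrl, while the interval of Q153R over Ctrl, 1.08 (0.978 to 1.19), included 1. Cacybp (chromosome 1, 160202367 to 160212875, minus strand) encodes a calcyclin-binding protein that links a ubiquitin ligase to its targets and is not a chaperone by itself. Its 15.9, 29.2 and 21.7 CPM in nuclei labelled KD, Q153R and Ctrl (99, 185 and 164 UMIs) spread both ways from Ctrl, with ratios of 0.730 (0.563 to 0.943) for KD over Ctrl and 1.35 (1.08 to 1.67) for Q153R over Ctrl.

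The J-domain genes were unlike each other. Dnajb1 (chromosome 8, 83608193 to 83612653, plus strand), a strongly heat-inducible J-domain protein, had 7.21 CPM in nuclei labelled KD (45 UMIs), 12.8 CPM in nuclei labelled Q153R (81 UMIs) and 7.82 CPM in nuclei labelled Ctrl (59 UMIs). Q153R stood above both, at 1.64 (1.16 to 2.33) of Ctrl, and KD over Ctrl was 0.923 (0.612 to 1.38). Dnaja1 (chromosome 4, 40722150 to 40737149, plus strand) had 59.3, 75.9 and 72.5 CPM in nuclei labelled KD, Q153R and Ctrl, so that KD was lower, at 0.818 (0.715 to 0.935) of Ctrl. Dnaja1 overlaps Smu1 and Gm6297 on the opposite strand, and its reads cannot be told apart from theirs if counting ignored strand, which is not stated.

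Cct7 and Hspa5 act in other settings. Cct7 (chromosome 6, 85451514 to 85468475, plus strand) encodes a subunit of TRiC. Its level was 21.5 CPM in nuclei labelled KD (134 UMIs), 31.1 CPM in nuclei labelled Q153R (197 UMIs) and 35.0 CPM in nuclei labelled Ctrl (264 UMIs), and the KD over Ctrl ratio of 0.614 (0.495 to 0.759) was the lowest of the 10. Cct7 overlaps Pradc1 on the opposite strand, with the same doubt on strand. Hspa5 (chromosome 2, 34771970 to 34777547, plus strand) encodes the HSP70 of the ER. It had 112, 132 and 131 CPM in nuclei labelled KD, Q153R and Ctrl, so that KD was 0.859 (0.779 to 0.948) of Ctrl and Q153R equalled Ctrl at 1.01 (0.922 to 1.11).

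Against all genes with at least 200 UMIs in a pair of pools, and with a call set at a ratio at least 25% above 1 or at most 0.8, 4 of 9 members were called lower for KD over Ctrl (Hsph1, Cacybp, Cct7 and Chordc1), where 6.21% of 8118 genes were, and 0 were called higher, where 2.78% were. For Q153R over Ctrl, 1 of 9 was called higher (Cacybp), where 2.89% of 8157 genes were, and 0 lower, where 3.98% were. For Q153R over KD, 5 of 9 were called higher (Hsph1, Dnaja1, Cacybp, Cct7 and Chordc1), where 5.64% of 7760 genes were, and 0 lower, where 3.67% were. Dnajb1 had under 200 UMIs in every pair and was not counted. The median ratio of the 9 members was 0.818, 1.04 and 1.28 for KD over Ctrl, Q153R over Ctrl and Q153R over KD, and that of all genes 0.970, 0.987 and 1.02. The members were selected on these same contrasts, so nothing is read from the counts, and the comparisons with Ctrl share its nuclei. Hspa5 (0.859) and Dnaja1 (0.818) lay just outside the 0.8 limit and Chordc1 (0.776) just inside it.

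**Figure D2:**
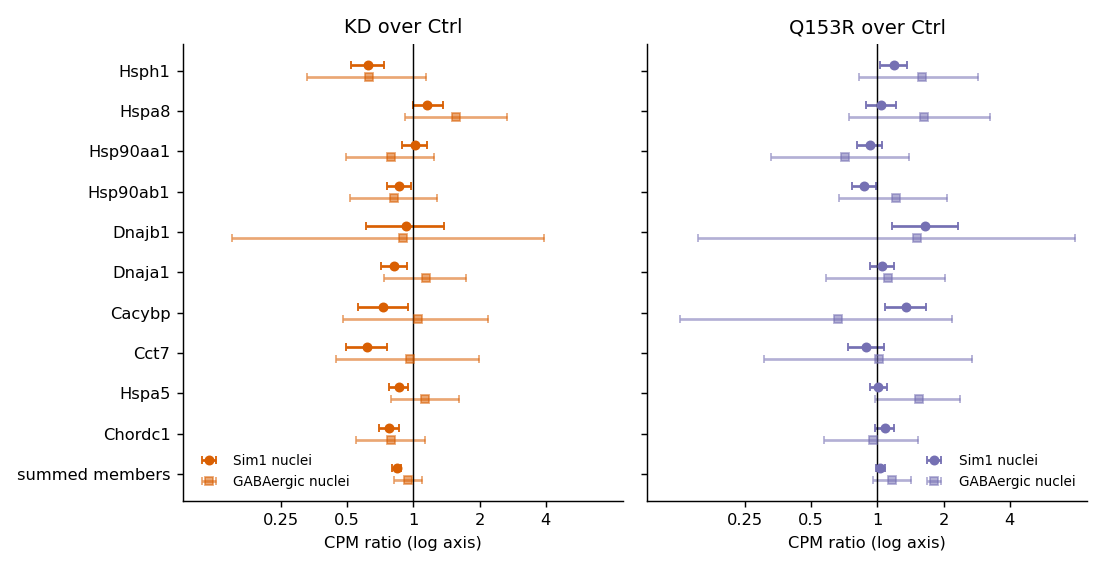
Ratio of CPM on a log axis, KD over Ctrl (left) and Q153R over Ctrl (right), for each gene and for their sum, in Sim1 nuclei (circles) and GABAergic nuclei (squares); bars are exact conditional 95% intervals and the line marks 1. In Sim1 nuclei the KD over Ctrl interval of the sum lies below 1, and in GABAergic nuclei every interval of both contrasts includes 1.

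In GABAergic nuclei, which the Sim1 threshold keeps apart from Sim1 nuclei, the counts were small and no member could be separated from Ctrl. They were sorted as GFP-positive too, so they are not a class known to be free of Cre activity. The summed level was 549 CPM (484 to 620) in nuclei labelled KD, 677 CPM (564 to 806) in nuclei labelled Q153R and 578 CPM (531 to 627) in nuclei labelled Ctrl, from 258, 126 and 569 UMIs. The ratio was 0.949 for KD over Ctrl and 1.17 for Q153R over Ctrl, both with intervals that include 1. Hsph1 had 31.9, 80.6 and 50.8 CPM from 15, 15 and 50 UMIs, a KD over Ctrl ratio of 0.628 that is close to the 0.622 of Sim1 nuclei but whose interval includes 1. For each member and the sum, the GABAergic ratio divided by the Sim1 ratio had an interval that included 1 in both contrasts, for the sum 1.13 (0.968 to 1.32) for KD over Ctrl and 1.14 (0.933 to 1.38) for Q153R over Ctrl, so a difference between the classes was not detectable at this depth. In these nuclei the oligodendrocyte markers summed to 151, 59.1 and 44.7 CPM in nuclei labelled KD, Q153R and Ctrl, the astrocyte markers to 142, 113 and 80.2 CPM, and the PVH neuron markers to 23.4, 80.6 and 21.3 CPM; their part in the ratios was not tested.

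In the peptide neurons, taken from Sim1 nuclei, KD was the lowest pool in all 4 classes, and the interval of KD over Ctrl lay below 1 in Sst neurons alone. Oxt neurons, which make oxytocin, summed to 496 CPM in nuclei labelled KD, 605 CPM in Q153R and 532 CPM in Ctrl (34, 44 and 60 nuclei). Avp neurons, which make vasopressin, had 527, 650 and 621 CPM (62, 74 and 61 nuclei). The KD over Ctrl ratio was 0.931 in Oxt neurons and 0.847 in Avp neurons, and both intervals include 1. Astrocyte markers summed to 307, 60.2 and 53.0 CPM in Oxt neurons labelled KD, Q153R and Ctrl, and oligodendrocyte markers to 180, 47.2 and 39.8 CPM in Crh neurons; their part in the values was not tested. Crh neurons, which make corticotropin-releasing hormone, were the fewest, with 13, 22 and 29 nuclei, and had 527, 718 and 757 CPM. Their 10-gene total was 38 UMIs in nuclei labelled KD, so no single gene reached 50 UMIs over a pair of pools. Sst neurons, which make somatostatin, had 485 CPM (406 to 575) in nuclei labelled KD, 680 CPM (584 to 788) in Q153R and 638 CPM (561 to 722) in Ctrl (55, 61 and 78 nuclei). There the KD over Ctrl ratio was 0.760 (0.611 to 0.942). Its interval included 1 with Sim1 of at least 3 UMIs (0.901, 0.669 to 1.20), with the peptide threshold doubled (0.746, 0.544 to 1.01) and without Hspa5 and Chordc1 (0.882, 0.680 to 1.14). In the same neurons the Q153R over Ctrl ratio was 1.07, and Hspa5 had 16 UMIs in nuclei labelled KD against 46 in Ctrl, or 58.3 against 117 CPM.

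Within nuclei labelled Ctrl the summed level ran from 757 CPM in Crh neurons through 638 CPM in Sst neurons, 621 CPM in Avp neurons, 578 CPM in GABAergic nuclei and 532 CPM in Oxt neurons, and the intervals of each neighbouring pair overlapped, while those of Crh neurons (624 to 909) and Oxt neurons (470 to 601) did not. A few genes stood further from Ctrl than the sum of their class. In Avp neurons Hsp90ab1 had 39.9 CPM in nuclei labelled KD (15 UMIs) and 34.3 CPM in Q153R (13 UMIs), against 82.2 CPM in Ctrl (32 UMIs). Cacybp in the same neurons had 13.3 CPM in KD (5 UMIs), 44.9 CPM in Q153R (17 UMIs) and 15.4 CPM in Ctrl (6 UMIs). Chordc1 in Crh neurons had 4 UMIs in KD and 17 in Q153R, against 26 in Ctrl. These 3 were singled out after their values were seen, and rest on few molecules.

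**Figure D3:**
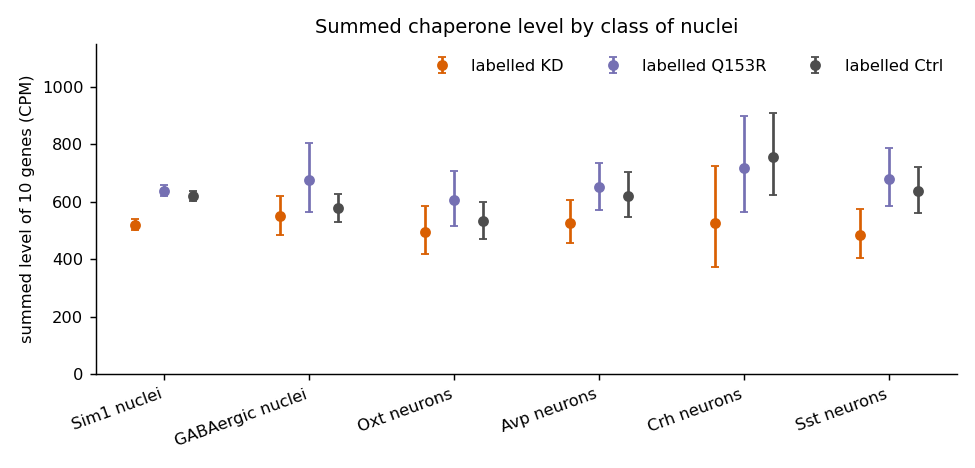
Summed level of the 10 genes (CPM) in each class of nuclei, labelled KD, Q153R and Ctrl from left to right; bars are 95% Poisson intervals. KD is the lowest pool in each class, from 485 CPM in Sst neurons to 549 CPM in GABAergic nuclei.

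Sim1 nuclei were also divided into 21 clusters without the 10 genes and the related genes listed below. The summed level was highest, at 818 CPM (782 to 856), in a cluster of 502 nuclei led by Sv2c, which encodes a synaptic vesicle protein. The other clusters lay between 502 and 660 CPM around a median over clusters of 555 CPM. The Sv2c cluster was also the highest for Hsph1, Hsp90aa1, Hsp90ab1, Dnajb1 and Hspa5. Its nuclei were shallow, with a median of 4152.50 UMIs, as were those of the Sst-led cluster, which had a median of 4149 UMIs and 660 CPM. The Crhr2-led cluster had the same level at a median of 6218 UMIs, and the part of depth in these levels was not tested. In the Sv2c cluster the sum was 652 CPM in nuclei labelled KD, 948 CPM in Q153R and 829 CPM in Ctrl, with ratios of 0.786 (0.696 to 0.887) for KD over Ctrl and 1.14 (1.03 to 1.27) for Q153R over Ctrl. Hsph1 there had 39.8 CPM in KD, 102 CPM in Q153R and 68.7 CPM in Ctrl, with ratios of 0.579 (0.351 to 0.930) for KD over Ctrl and 1.48 (1.05 to 2.11) for Q153R over Ctrl.

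The lower level in KD was spread over most clusters. The sum was lower in KD than in Ctrl in 19 of 21 clusters, with ratios from 0.615 to 1.01, and higher in Q153R than in Ctrl in 12 of 21. Among clusters with at least 20 UMIs over the pair of pools, Hsph1 was lower in KD than in Ctrl in 14 of 15 and Cct7 in 8 of 8. Chordc1 was lower in 15 of 20, Hspa5 and Dnaja1 in 12 of 19 each, and Hspa8 in 5 of 15. Pooled within clusters by the Mantel-Haenszel method, the KD over Ctrl ratio was 0.847 (0.809 to 0.886) for the sum and 0.624 (0.526 to 0.742) for Hsph1, about the values without clusters. The clusters divide the same Sim1 nuclei in which the genes were selected, so neither these counts nor the pooled ratios are separate support. Clusters were not counted in this way for other genes, whose median KD over Ctrl ratio was 0.970. The smallest cluster, 13 nuclei, was led by the astrocyte gene Slc1a3.

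**Figure D4:**
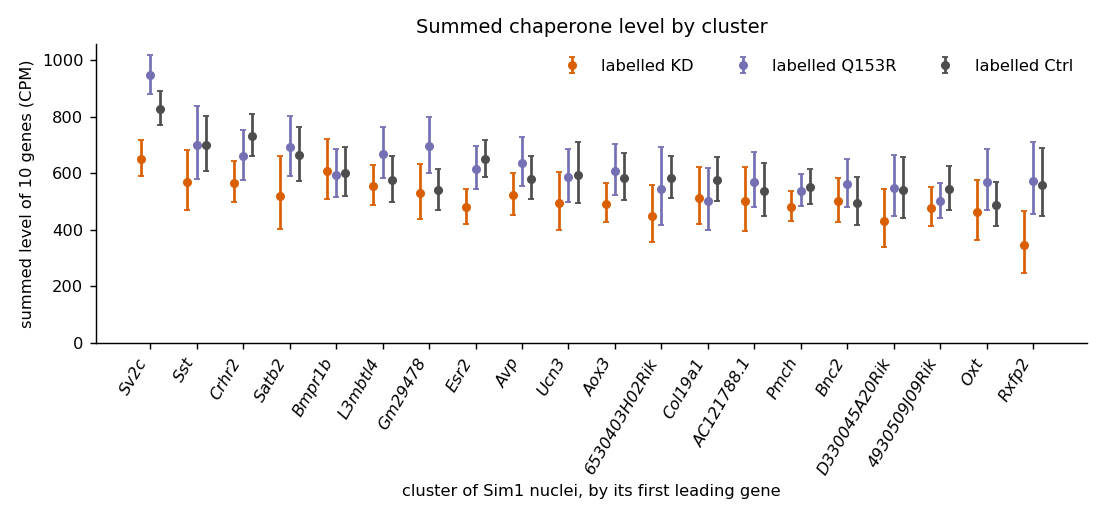
Summed level of the 10 genes (CPM) in nuclei labelled KD, Q153R and Ctrl, left to right, for each cluster with at least 50 nuclei, named by its first leading gene and ordered by level; bars are 95% Poisson intervals. The Sv2c-led cluster is highest in all 3 pools, at 652, 948 and 829 CPM.

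Depth and sex differ between the pools, and both were set beside the result. With Sim1 nuclei ordered by UMIs into 5 depth groups, the summed level was lower in the deepest group than in the shallowest in every pool, at 496 against 625 CPM for KD, 537 against 815 CPM for Q153R and 571 against 786 CPM for Ctrl. Nuclei labelled KD were the deepest and nuclei labelled Q153R the shallowest. In each depth group KD was below Ctrl, and within depth groups the ratio was 0.855 (0.818 to 0.895) for KD over Ctrl, 0.989 (0.947 to 1.03) for Q153R over Ctrl and 1.15 (1.10 to 1.21) for Q153R over KD. Hsph1 in KD had 26.1 CPM in the shallowest group, from 8 UMIs, and 32.9 CPM in the deepest, from 91 UMIs. The shallowest count is too small to tell whether Hsph1 shared the decrease in KD. In Q153R Hsph1 had 79.5 CPM in the shallowest group and 54.5 CPM in the deepest, from 74 UMIs each. In Ctrl it had 69.1 CPM in the shallowest (45 UMIs) and 44.7 CPM in the deepest (125 UMIs). Within depth groups Hsph1 in KD stayed at 0.629 (0.530 to 0.746) of Ctrl. In Xist nuclei alone and within depth groups together, KD over Ctrl was 0.860 (0.818 to 0.905) for the sum, 0.622 for Hsph1, 0.616 for Cct7 and 0.779 for Chordc1. The same setting gave 0.931 (0.878 to 0.987) for the sum of Q153R over Ctrl, on the other side of 1 from the value without it, and 1.08 (0.682 to 1.70) for Dnajb1. In Xist nuclei Dnajb1 had 9.85 CPM in Q153R (30 UMIs) and 8.47 CPM in Ctrl (46 UMIs), and in Y nuclei 16.0 CPM in Q153R (33 UMIs) and 5.54 CPM in Ctrl (6 UMIs). The Q153R over Ctrl ratio of Dnajb1 was thus larger in Y nuclei than in Xist nuclei, although the Y ratio over the Xist ratio, 2.48 (0.926 to 6.62), had an interval that included 1. For Cacybp the Q153R over Ctrl ratio was 1.135 (0.8413 to 1.522) in Xist nuclei and 1.736 (1.026 to 3.071) in Y nuclei. Its Y ratio over the Xist ratio, 1.53 (0.8504 to 2.752), also had an interval that included 1.

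**Figure D5:**
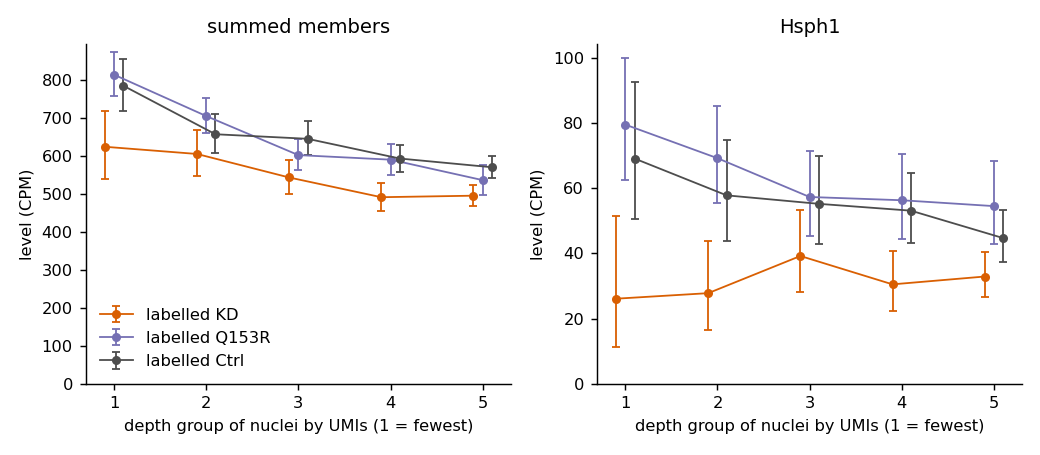
Level (CPM) of the summed 10 genes (left) and of Hsph1 (right) in Sim1 nuclei, by depth group (5 groups of nuclei ordered by UMIs), for nuclei labelled KD, Q153R and Ctrl; bars are 95% Poisson intervals and lines join the points. The sum in KD runs below Ctrl in each group, with 496 and 571 CPM in the deepest.

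Chaperone UMIs were thinly spread over nuclei. A Sim1 nucleus held a median of 3 UMIs of the 10 genes in each pool, 6.34%, 7.36% and 6.19% of nuclei labelled KD, Q153R and Ctrl held none, and the highest nucleus held 19, 16 and 23. The 1% of nuclei with the highest summed level carried 2.43%, 2.28% and 1.95% of the UMIs, so no pool's level rested on a few nuclei. Across nuclei of a pool, the correlation of each gene with the sum of the others on the log2(CPM + 100) scale ran from -0.016 to 0.089 over 899, 1169 and 1180 nuclei, which share a library and differ in depth. With so few molecules a nucleus, neither joint nor separate variation of the genes can be read from correlations this weak.

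The other genes of the protein-folding system, in lists chosen with earlier results of these data known, were counted by the same rule in Sim1 nuclei. For KD over Ctrl, 6.21% of all 8118 genes were called lower and 2.78% higher, and their median ratio was 0.970. The HSP90 co-chaperones, which load clients onto HSP90 or pace its ATP cycle, had 3 of 13 lower, 0 higher and a median of 0.850. The lowest were Ahsa1 (0.637, 11.2 CPM in KD against 17.6 CPM in Ctrl), which activates the ATPase, Ptges3 (0.6785, 54.7 against 80.6 CPM), which encodes p23, and Fkbp5 (0.7997), a glucocorticoid-induced co-chaperone. TRiC and prefoldin had 2 of 8 lower and 0 over 1, with a median of 0.875, Cct5 at 0.732, Cct4 at 0.762 and Cct3 at 0.808, beside Cct7 itself at 0.614. Of 3 heat shock factors measured, 2 were lower, Hsf1 at 0.736 (23.9 CPM in KD against 32.5 CPM in Ctrl) and Hsf5 at 0.779, while Hsf2 was at 0.821, which left their median at 0.779.

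For KD over Ctrl the J-domain list had 2 of 12 lower, where 6.21% of all genes were. Dnaja4 was at 0.668, Dnajb2 at 0.770 and Dnajb5 next at 0.836, and the median was 0.947. Of 5 other cytosolic HSP70 and HSP110 genes 0 were called, and the furthest from 1 were Hspa12a at 1.246, Hspa13 at 0.8065 and Hspa4l at 0.850 around a median of 0.920. The ER folding genes had 1 of 16 lower, the transcription factor gene Xbp1 at 0.760, followed by Dnajc3 at 0.805 and the disulfide isomerase gene P4hb at 0.828, and a median of 0.899. Mitochondrial chaperones had 1 of 5 lower, with Hspe1 at 0.788, Hspd1 at 0.823 and Hspa9 at 1.03 (median 0.993). Of the proteasome genes 2 of 17 were lower, Psma5 at 0.756 and Psmb3 at 0.778, and Psma2 was at 1.22 (median 0.938). Of 5 oxidative stress genes 1 was lower, Srxn1 at 0.739, with Gclc at 0.828 and Txnrd1 at 0.833, the median of the list. Of the activity and dissociation genes, which tissue handling can raise, 2 of 7 were called higher, Nr4a3 at 1.71 and Fosl2 at 1.33, where 2.78% of all genes were, and 0 lower, with Btg2 at 0.845 and a median of 1.10. Hspb11, the 1 gene measured from a list drawn up by small HSP symbols, was at 1.07, and the cold-induced Rbm3 at 0.9575.

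For Q153R over Ctrl, 2.89% of all 8157 genes were called higher and 3.98% lower, and their median ratio was 0.987. The co-chaperones were divided, with 2 of 14 higher, 3 lower and a median of 1.04. The higher were Fkbp4 (1.29, 29.1 CPM in Q153R against 22.5 CPM in Ctrl) and Stip1 (1.265, 58.7 against 46.4 CPM), which links HSP70 to HSP90. Bag4 at 0.727, Ahsa1 at 0.7715 and Fkbp5 at 0.795 were lower. The activity and dissociation genes had 5 of 7 higher, 0 lower and a median of 1.38, among them Nr4a3 at 2.32 (38.1 CPM in Q153R against 16.4 CPM in Ctrl), Fosl2 at 1.63 and Npas4 at 1.45. These genes were higher beside the higher Hsph1, Dnajb1 and Cacybp, and their part in those values was not tested. The J-domain list had 1 of 12 lower (Dnaja4 at 0.748, with Dnajb12 at 1.215 and Dnajb4 at 0.865, median 1.01), and the proteasome 1 of 17 (Psmb3 at 0.795, with Psma5 at 0.847 and Psma6 at 0.850, median 0.968). None was called among 9 TRiC and prefoldin genes (Cct3 at 0.860, Pfdn2 at 0.861, Cct5 at 1.09, median 1.003), 16 ER genes (Dnajc3 at 0.819, Pdia3 and Calr at 0.8525, median 0.939), 3 heat shock factors (Hsf1 at 0.8815, Hsf5 at 0.932, Hsf2 at 0.973, median 0.932), or 5 cytosolic HSP70 and HSP110 genes (Hspa13 at 0.886, Hspa12a at 1.10, Hspa14 at 1.06, median 1.03). Nor was any among 5 mitochondrial chaperones (Clpp at 1.23, Hspa9 at 1.14, Hspe1 at 1.11, median 1.11), 5 oxidative stress genes (Txnrd1 at 0.864, Gclc at 0.887, Srxn1 at 1.095, median 0.918), or Hspb11 at 0.961 and Rbm3 at 0.941. Among the genes named as called in these lists, the intervals of Hsf5 (0.5946 to 1.016) and Psmb3 (0.5835 to 1.034) for KD over Ctrl and of Ahsa1 (0.5813 to 1.019) and Psmb3 (0.5983 to 1.053) for Q153R over Ctrl included 1. All of these ratios come without replicates, and the share of all genes called was 2.78% to 6.21% by contrast and direction with Ctrl.

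Over 18 points, 3 pools by 6 separate classes of nuclei, among the genes whose level on the log2(CPM + 5) scale most resembled that of the sum were Slc38a2 (Pearson r = 0.812), Trp53bp1 (0.796), Ptprs (0.777), Psmd1 (0.766), Taz (0.744), Rtl5 (0.739), Clint1 (0.738), Braf (0.735) and Ahi1 (0.731), out of 6328 genes ranked. The points share a library, and classes differ in depth. Of the members, Chordc1 followed the sum that contains it most closely (r = 0.898) and Hsp90aa1 least (r = 0.208).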

How the data were processed

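The authors deposited raw UMI counts per gene and barcode, with 3 hashtag rows, per the file headers. Cell Ranger 6.0.0 and mm10 are named in the submitters' processing notes, and 7.0.0 in the matrix header. Not given in the sources used here are the annotation, the treatment of introns and the use of strand. Of 31053 gene IDs, 30934 were found in GENCODE vM21 (GRCm38), the source of coordinates; promoters are from RefSeq.

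A barcode needed at least 500 genes and a mitochondrial share under 5%, which 6157 met. A tag was called at 61 UMIs for KD, 37 for Q153R and 105 for Ctrl, and nuclei with more than 1 tag (1124) or none (129) were left out, which removes doublets between pools but not within them. Near the thresholds, 97, 149 and 266 barcodes were less than 25% above those of KD, Q153R and Ctrl. Oxt and Avp neurons were Sim1 nuclei with at least 2000 CPM and 5 UMIs of the peptide gene, Sst neurons with at least 1000 CPM and 3 UMIs, and Crh neurons with at least 3 UMIs; 6 nuclei that passed for more than 1 peptide were left out. Levels are UMIs summed over nuclei per 1000000 summed gene UMIs (CPM), with exact Poisson intervals, ratios have exact conditional binomial intervals, and ratios within strata were pooled by Mantel-Haenszel weights, with Greenland-Robins intervals. The ratio of 2 ratios has a log-normal interval. With 1 pool a genotype no p-value was computed, and a call means a ratio at least 25% above 1 or at most 0.8 among genes with at least 200 UMIs. Shares were thinned to 3141 UMIs, the 10th percentile, which left out 350 shallower Sim1 and GABAergic nuclei. Sim1 nuclei were clustered with scanpy 1.11.5 (2000 variable genes, 30 components, 15 neighbours, resolution 1). Python 3.11.15, numpy 2.4.6 and scipy 1.17.1 were used, and the ratios and calls were tested on simulated Poisson counts. Those counts hold counting error only, as the intervals assume, so the test does not cover variation between nuclei or mice.

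The members and all lists were chosen with earlier results of these data known. All 10 members are named, as are the 3 genes furthest from 1 in each list for KD over Ctrl and for Q153R over Ctrl, and the 10 genes most like the sum, of which 1 is not reported here. Alternatives covered the tag, filter, class, depth, sex, cluster, scaling, member and fold choices.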

Additional observations from a re-analysis of the deposited data

Results flagged for a closer look

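The ratio of Q153R over Ctrl in Y nuclei, divided by that in Xist nuclei, had a 95% interval that did not include 1 for Hsp90aa1 and for the sum of the 10 genes. These were 2 of 22 such intervals computed for KD over Ctrl and Q153R over Ctrl in Sim1 nuclei, where about 1 in 20 would miss 1 by counting error alone. For Hsp90aa1 the ratio was 0.632 (0.471 to 0.849) in Y nuclei, with 50.8 CPM in Q153R (105 UMIs) and 80.3 CPM in Ctrl (87 UMIs), and 1.04 (0.8717 to 1.247) in Xist nuclei, with 65.3 CPM in Q153R (199 UMIs) and 62.6 CPM in Ctrl (340 UMIs). The first ratio divided by the second was 0.605 (0.434 to 0.845). For the sum, the ratio was 1.09 (0.998 to 1.20) in Y nuclei and 0.979 (0.924 to 1.04) in Xist nuclei, and the first divided by the second was 1.12 (1.004 to 1.246). The comparison was chosen after the data were seen, its intervals cover counting error only, and the number of mice of each sex in a pool is not given.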

How the results depend on the processing

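Of 249 alternative values for 19 main results, 217 were unchanged by the rule used and 32 moved. A ratio or correlation was unchanged if it lay within the interval of the value reported. A count of members called was unchanged if it lay within a factor of 1.5 of the count reported. For summed levels whose reported interval includes 1, 16 of 137 values lay on the other side of 1; for those whose interval does not, 0 of 44 did. For the summed level in Sim1 nuclei, Y nuclei alone gave 0.772 for KD over Ctrl, 1.09 for Q153R over Ctrl and 1.42 for Q153R over KD. Xist nuclei alone gave 0.979 for Q153R over Ctrl and 1.15 for Q153R over KD. Within depth groups Q153R over KD was 1.15, and Xist nuclei within depth groups, an alternative chosen after seeing the data, gave 0.931 for Q153R over Ctrl and 1.08 for Q153R over KD. Without Hspa8, Hsp90aa1 and Hsp90ab1 the ratio was 0.777 for KD over Ctrl and 1.38 for Q153R over KD, and 0.608 for KD over Ctrl in Sst neurons. In Sim1 nuclei these genes lay above the sum for KD over Ctrl (1.16, 1.02 and 0.861 against 0.841). For Q153R over KD they lay below it (0.890, 0.904 and 1.01 against 1.23). The direction of both changes was therefore fixed by the genes left out. In Y nuclei alone, KD over Ctrl was 0.791 in GABAergic nuclei and 0.286 in Sst neurons, and Q153R over Ctrl was 2.14 in Avp neurons, 1.54 in Crh neurons and 0.580 in Sst neurons; only 30 Sim1 nuclei labelled KD were Y nuclei. Q153R over Ctrl was also 0.846 in Avp neurons among Xist nuclei and 1.34 in Crh neurons with the peptide threshold doubled. The count of members called for KD over Ctrl, 4 of 9, became 2 of 9 at a fold of 1.5 and 1 of 2 with at least 1000 UMIs, and in Y nuclei no member reached the UMI minimum. That for Q153R over Ctrl, 1 of 9, became 3 of 9 with Sim1 of at least 3 UMIs, 2 of 9 without nuclei above the 90th percentile of UMIs, 0 of 9 at a fold of 1.5, 2 of 10 with at least 50 UMIs and 0 of 3 with at least 1000 UMIs. That for Q153R over KD, 5 of 9, became 2 of 7 with Sim1 of at least 3 UMIs, 3 of 8 in Xist nuclei, 2 of 2 in Y nuclei, 2 of 9 at a fold of 1.5 and 1 of 2 with at least 1000 UMIs. The mean correlation of members across nuclei was -0.041 in KD and -0.029 in Ctrl among Y nuclei, against 0.036 and 0.054 over all Sim1 nuclei. Of 528 values for single members 40 moved and 1 crossed 1 where the reported interval does not include it, Cacybp for KD over Ctrl, at 1.38 (0.524 to 3.31) in Y nuclei. The cause of these changes was not tested beyond the fewer nuclei or genes that a setting leaves. Over all alternatives in Sim1 nuclei, KD over Ctrl ran from 0.772 to 0.868 for the sum and from 0.569 to 0.742 for Hsph1. Y nuclei labelled KD gave no value in Avp and Crh neurons and for 5 members in GABAergic nuclei. Some members under 50 UMIs over a pair of pools are given as levels or plotted as ratios. No paired analysis was possible because each genotype is 1 pool. At this depth the summed level of Crh neurons rested on 38 UMIs in nuclei labelled KD.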
